A study of Mus musculus with 6 samples.

Results

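The transcripts described are those of 10 genes for dual-specificity phosphatases that act on MAP kinases, measured in mouse liver with and without SRC-2, the nuclear receptor coactivator encoded by Ncoa2. The 10 genes, Dusp1, Dusp2, Dusp4, Dusp5, Dusp6, Dusp7, Dusp8, Dusp10, Dusp14 and Dusp16, were taken by platform symbol, and all had at least 1 probe set, 16 in all of 45101 on the array. They are 10 of 18193 genes with a probe set of their own. Dusp1 and Dusp6 were chosen by their lower values in SRC-2 null liver in these same arrays, so their difference is described without a test. The other 8 were taken as relatives by name. The SRC-2 null group held 3 arrays and the wild-type group held 3, each from flash-frozen liver of female mice on a C57 background. All the animals, wild-type included, had been ovariectomized when 6 weeks old, and livers were taken after a further 2 weeks, under Avertin anaesthesia. The labels call the mutant SRC-2-/- and SRC-2 null, name no driver or tissue restriction, and do not describe the allele. They also do not say whether the arrays of a group came from separate animals, and so the spread behind each p-value is that of these samples and may be technical.

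MAP kinases (ERK, JNK and p38) are switched on when a kinase phosphorylates a threonine and a tyrosine in their activation loop. Dual-specificity phosphatases remove both phosphates and end the signal. Several of their genes are themselves induced by MAP kinase signalling, so that their RNA rises as part of a negative feedback loop. Dusp1, Dusp2, Dusp4 and Dusp5 are inducible and encode nuclear enzymes. Dusp6, itself induced by ERK, and Dusp7 encode cytoplasmic enzymes selective for ERK, and Dusp8, Dusp10 and Dusp16 encode enzymes that prefer JNK and p38. Dusp14 encodes a small atypical enzyme without the MAP kinase-binding domain that the other 9 share. In liver, Dusp1 is also known as a gene that glucocorticoids induce.

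Several of these genes are known to be induced by transcription, so the sequence before the start sites is shown and searched for motifs of inducible promoters. RefSeq (GRCm38.p6) gave a window of 250 bases upstream of a start site for 9 of the members, and Dusp4 was not used here. Windows are shown for the 2 genes chosen by their lower values (Dusp1 and Dusp6), for Dusp8, which shares a motif with Dusp1, and for Dusp5, which has a serum-response motif. They lie at chr17:26508473-26508722 on the minus strand for Dusp1, chr10:99262981-99263230 on the plus strand for Dusp6, chr7:142095285-142095534 on the minus strand for Dusp8 and chr19:53528895-53529144 on the plus strand for Dusp5. Each is written 5′ to 3′ and ends at the base before the start site. Capitals mark the TGACG core of the cAMP response element (either strand) and the CArG box, the core of the serum response element.
Dusp1: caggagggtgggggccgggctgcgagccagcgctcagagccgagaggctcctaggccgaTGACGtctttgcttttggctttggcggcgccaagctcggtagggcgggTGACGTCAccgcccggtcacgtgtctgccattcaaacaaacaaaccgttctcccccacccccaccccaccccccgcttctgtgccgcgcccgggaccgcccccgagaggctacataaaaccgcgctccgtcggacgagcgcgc
Dusp6: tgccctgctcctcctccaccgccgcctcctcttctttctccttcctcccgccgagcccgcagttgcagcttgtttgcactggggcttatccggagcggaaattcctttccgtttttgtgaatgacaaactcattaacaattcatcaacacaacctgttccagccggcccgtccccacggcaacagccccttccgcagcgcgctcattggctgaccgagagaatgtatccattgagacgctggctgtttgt
Dusp8: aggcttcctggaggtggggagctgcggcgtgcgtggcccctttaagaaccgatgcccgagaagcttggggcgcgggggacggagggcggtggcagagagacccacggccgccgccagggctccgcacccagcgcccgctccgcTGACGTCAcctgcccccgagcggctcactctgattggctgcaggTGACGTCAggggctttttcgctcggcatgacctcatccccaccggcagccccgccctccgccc
Dusp5: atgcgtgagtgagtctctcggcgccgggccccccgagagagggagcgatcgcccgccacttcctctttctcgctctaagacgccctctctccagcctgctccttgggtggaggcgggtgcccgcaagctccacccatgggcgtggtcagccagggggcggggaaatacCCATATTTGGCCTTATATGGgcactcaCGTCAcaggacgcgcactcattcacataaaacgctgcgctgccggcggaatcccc

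The Dusp1 window held a full cAMP response element (TGACGTCA) 143 to 136 bases before the start and a further TGACG core 191 to 187 bases before it. The Dusp8 window held 2 full elements, 107 to 100 and 63 to 56 bases before the start, and the Dusp6 window held neither the element nor its core. The full element was in 2 of the 9 members' windows and in 1.56% of 32536 windows of the same length over all genes. The core, which each full element contains, was in 4 of the 9 windows (Dusp1, Dusp5, Dusp8 and Dusp16) and in 17.9% of all windows. Adjoining CArG boxes stood 82 to 73 and 72 to 63 bases before the Dusp5 start, a motif found in 1.48% of all windows and in no other member's window. On both strands, the AP-1 site (TGANTCA) and the glucocorticoid receptor hexamer (AGAACA) were in 0 of the 9 windows, against 6.73% and 16% of all windows. The E-box (CACGTG) was in the windows of Dusp1 and Dusp2, the ETS core (CCGGAA) in that of Dusp14, and the TATA box (TATAAA) in none, against 6.04%, 12.1% and 12.3% of all windows. The CCAAT box (CCAAT) was in 5 of the 9 windows, with that of Dusp6 at 46 to 42 bases before the start, and the GC box (GGGCGG) was in 7, against 33.8% and 33% of all windows. The members' windows had a GC content of 56.4% (Dusp6) to 77.2% (Dusp7), against a median of 52.4% over all windows, and GC-rich windows hold motifs rich in G and C more often. A match is a run of letters, not a shown binding site.

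Values are log2 expression values from robust multi-array average (RMA), and each array's median over all probe sets lay between 4.17 and 4.24. Each gene was represented by its brightest probe set over the 6 arrays, and the 11894 genes whose mean reached 4.21, the median of all probe sets, were tested with limma. The targeted gene checked the labels: Ncoa2 read 5.60, 5.44 and 5.86 on the null arrays and 7.74, 7.92 and 8.53 on the wild-type arrays. Replicate 3 of both genotypes stood apart from replicates 1 and 2. Deviations from the group means correlated at 0.52 between the 2 arrays numbered 3, and at -0.27 to -0.34 between an array numbered 3 and arrays numbered 1 or 2 of the other genotype. Differences within replicates 1 and 2 and within replicate 3 are therefore given for the main genes. The 9 hepatocyte markers tested had a summed level between 16.64 and 16.67 in null liver and between 16.65 and 16.68 in wild-type liver (log2 of the summed linear values), with 0 called by limma and 0 at an unadjusted p under 0.05. Those with the smallest p were Cps1 at 0.17, Tat at -0.18, Fgb at -0.12 and Ass1 at -0.10.

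Dusp1 and Dusp6 were lower in SRC-2 null liver by almost the same factor, 2.45-fold and 2.44-fold. None of the 6 other members bright enough to test differed by more than 0.14 on the log2 scale. Dusp14, Dusp10 and Dusp2 had means over the 6 arrays of 4.36, 4.68 and 4.95, and Dusp8 and Dusp7 of 5.60 and 5.75. Only Dusp16, at 7.69, lay near Dusp6, at 7.81, and Dusp1 stood at 10.07. Differences are compressed near background, so the small values of Dusp14, Dusp10 and Dusp2 do not show that the fall spared them. Of 8 members tested 2 were called lower at an adjusted p under 0.05, and over all 11894 genes 3.13% were called lower. Those 2 are the genes chosen in this contrast, so nothing is read from that count. No member was called higher by limma, 0 of the 8 were higher at an unadjusted p under 0.05, and 1.55% of all genes were called higher. In whole liver, less RNA per cell and fewer cells of a type that makes the RNA cannot be told apart.

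**Figure D1:**
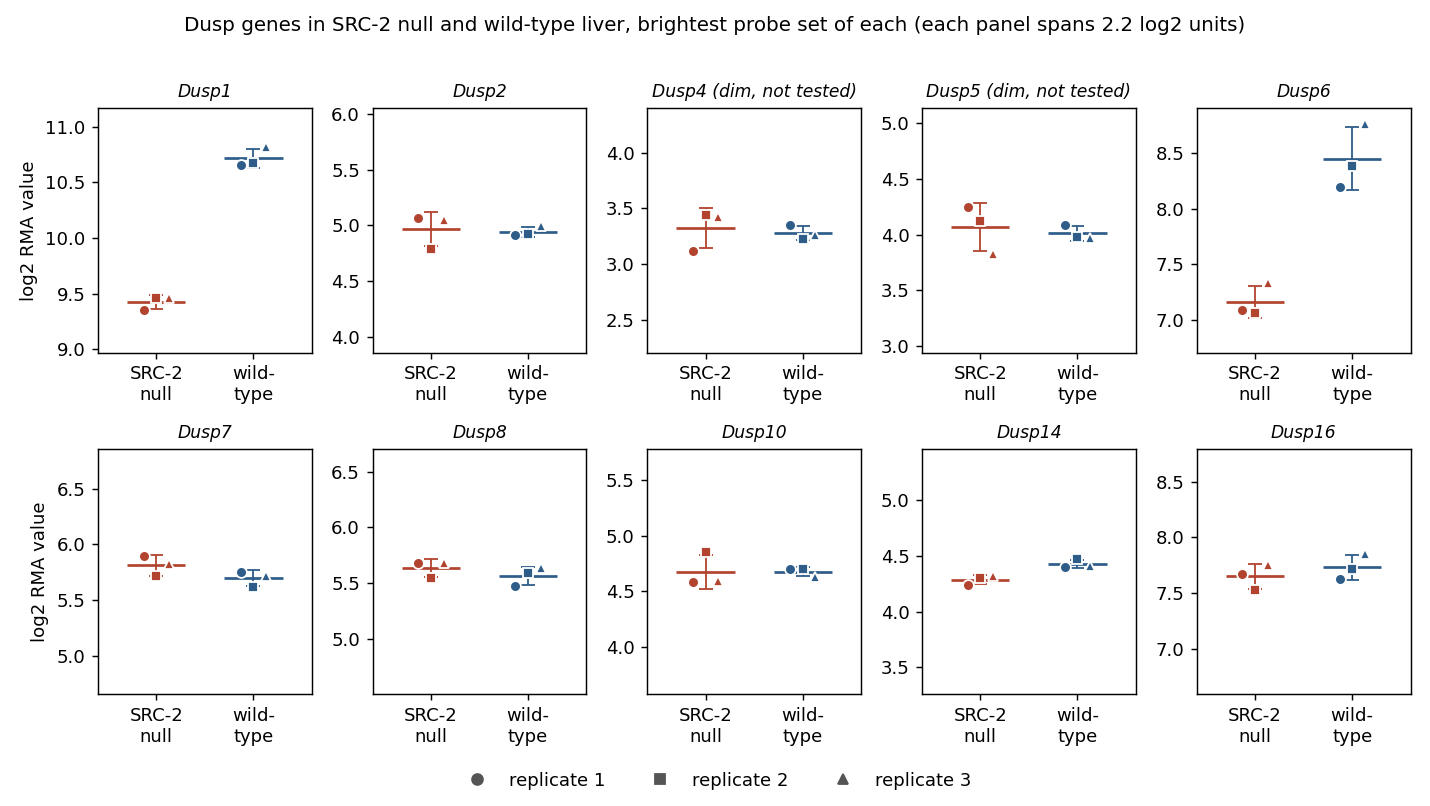
Log2 RMA value (y axis) of the brightest probe set of each of the 10 Dusp genes, with SRC-2 null arrays on the left (red) and wild-type arrays on the right (blue). Points are arrays, shaped by replicate number, with horizontal lines for group means and bars of 1 SD (n = 3). Every panel spans the same log2 range, and the groups lie far apart for Dusp1 and Dusp6 alone.

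Dusp1, the nuclear phosphatase that acts on p38, JNK and ERK, read 9.35, 9.46 and 9.46 on the 3 null arrays, against 10.65, 10.68 and 10.81 on the 3 wild-type arrays. The groups were far apart, and the arrays of each group lay close together. The means were 9.42 ± 0.06 in null liver and 10.71 ± 0.09 in wild-type liver (SD, n = 3 each), a log2 fold change of -1.29 (SE 0.09). Null minus wild-type was -1.26 within replicates 1 and 2 and -1.35 within replicate 3. By size of fall, Dusp1 stood at position 41 of the 11894 genes tested.

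Dusp6, the cytoplasmic phosphatase selective for ERK, read 7.09, 7.07 and 7.33 on the null arrays, against 8.20, 8.39 and 8.76 on the wild-type arrays. The groups did not overlap, and in both genotypes replicate 3 was the highest array. The means were 7.16 ± 0.15 in null liver and 8.45 ± 0.29 in wild-type liver (SD, n = 3 each), with a log2 fold change of -1.29 (SE 0.15) and position 42 by size of fall. Null minus wild-type was -1.11, -1.32 and -1.43 for replicates 1, 2 and 3 of Dusp6, and -1.30, -1.22 and -1.35 for those of Dusp1. As the groups of both genes did not overlap, all 3 of these differences had to be below 0, and they add no support. Each is represented by 1 probe set, so no further probe set of either gene could be set beside these values.

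The other nuclear, inducible members lay close to 0. Dusp2, best known from activated leukocytes, read 5.067, 4.788 and 5.045 on the null arrays and 4.915, 4.919 and 4.996 on the wild-type arrays. The null arrays spread on both sides of the wild-type arrays, and the log2 fold change was 0.02 with a 95% interval of -0.20 to 0.25 (limma adjusted p = 0.942). Dusp4 and Dusp5 had means over the 6 arrays of 3.30 and 4.04, below the filter of 4.21, and were not tested at gene level. In a fit over all 45037 probe sets that are not controls, their log2 fold changes were 0.04 (interval -0.22 to 0.30) and 0.06 (interval -0.22 to 0.33). RMA values so low lie close to background, where differences are compressed.

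Dusp7, the closest relative of Dusp6 among the members by role, had a log2 fold change on the other side of 0. Its brightest probe set read 5.90, 5.71 and 5.82 on the null arrays and 5.75, 5.62 and 5.72 on the wild-type arrays, so the groups overlapped. The log2 fold change was 0.11 (interval -0.09 to 0.31, limma adjusted p = 0.581). A further Dusp7 probe set, with a name ending in _x_at, read 4.61, 4.47 and 5.11 on the null arrays and 4.59, 4.47 and 4.31 on the wild-type arrays. Its null replicate 3 alone stood above the other 5 arrays, and the null minus wild-type difference was 0.01 within replicates 1 and 2 and 0.80 within replicate 3. Probe sets named in this way can detect related transcripts as well.

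The members whose enzymes prefer JNK and p38 lay close to 0. Dusp16 read 7.67, 7.53 and 7.75 on the null arrays and 7.63, 7.72 and 7.85 on the wild-type arrays, with a log2 fold change of -0.08 (interval -0.31 to 0.14, limma adjusted p = 0.744). The groups overlapped. Dusp16 has a dim second probe set, with means of 3.88 ± 0.15 in null liver and 3.66 ± 0.11 in wild-type liver (SD, n = 3 each). Its log2 fold change was 0.22 (adjusted p = 0.613 in limma over all probe sets), opposite in sign to that of the brighter one. Dusp8 had a log2 fold change of 0.07 (interval -0.13 to 0.27, limma adjusted p = 0.749), and its other probe sets gave 0.01 and 0.06. Dusp10 had means of 4.68 ± 0.15 in null liver and 4.68 ± 0.04 in wild-type liver (SD, n = 3 each), and its log2 fold change was -0.0032 (interval -0.23 to 0.22, limma adjusted p = 0.991). Its second probe set gave -0.13 with an adjusted p of 0.803 in limma over all probe sets.

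Dusp14, the atypical member, was the only other gene of the 10 whose groups did not overlap on any probe set. It read 4.24, 4.30 and 4.32 on the null arrays and 4.40, 4.47 and 4.41 on the wild-type arrays. The difference was small, with a log2 fold change of -0.14 (interval -0.32 to 0.04), and it was not called (limma adjusted p = 0.423). Over all 16 probe sets, 3 had every null array below every wild-type array, namely those of Dusp1, Dusp6 and Dusp14, and 0 had every null array above. Of all probe sets on the array, 7.72% lay wholly below and 7.6% wholly above. In the fit over all probe sets 0.802% were called lower and 0.266% higher. The 2 member probe sets among the lower calls are those of Dusp1 and Dusp6, which this contrast chose, so nothing is read from them. None of the other 14 was called in limma, nor was any of their unadjusted p under 0.05 (0 of 14).

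**Figure D2:**
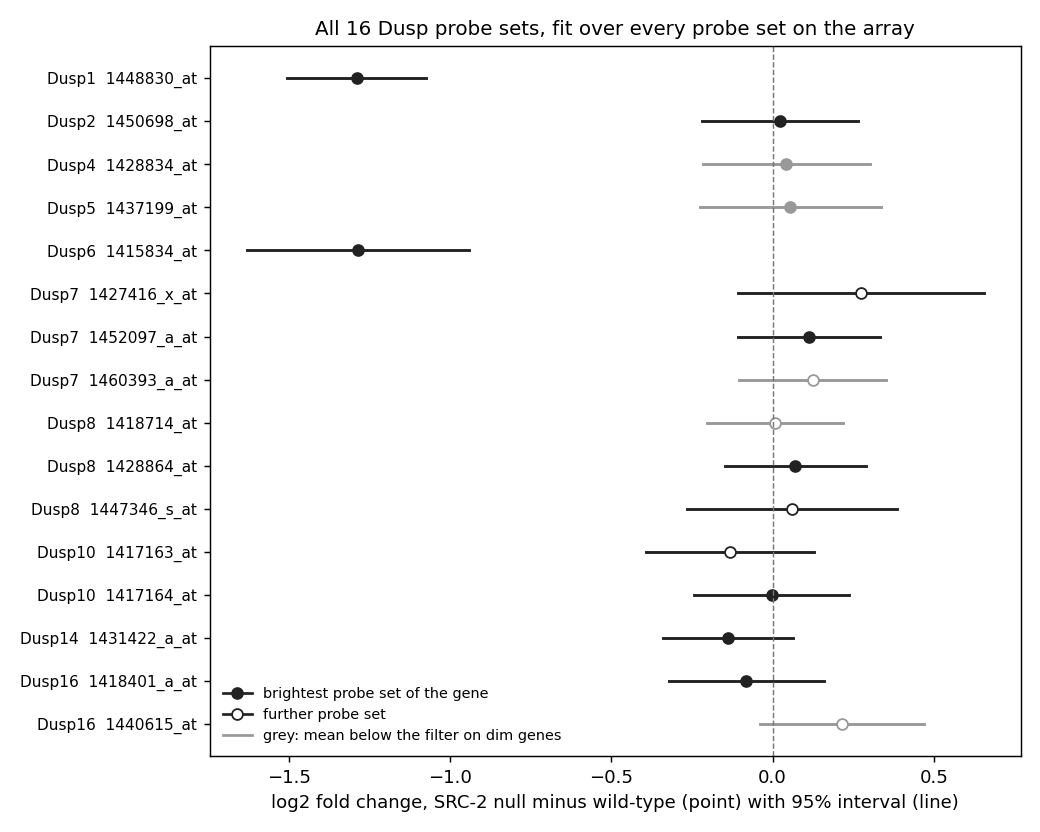
Log2 fold change, SRC-2 null minus wild-type (x axis), of all 16 Dusp probe sets (rows), with 95% intervals from limma over all probe sets. Filled points are the brightest probe set of a gene, open points further ones, and grey marks means below the filter. Dusp1 and Dusp6 lie near -1.29 and were chosen for that, and the other 14 lie between -0.14 and 0.27 with intervals that all include 0.

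The remaining dual-specificity phosphatase genes were set beside the members, among them Dusp9, the third cytoplasmic ERK phosphatase and relative of Dusp6 and Dusp7. Of 15 listed, 10 were bright enough to test and 0 were called in either direction by limma, with 1 lower and 1 higher at an unadjusted p under 0.05. Their median log2 fold change was 0.12, against 0.00 over all genes tested. Dusp9 had means of 4.53 ± 0.19 in null liver and 4.30 ± 0.17 in wild-type liver (SD, n = 3 each), with a log2 fold change of 0.23 (adjusted p = 0.413 in limma). Dusp11, an RNA phosphatase rather than a MAP kinase phosphatase, had every null array below every wild-type array, at -0.23 (adjusted p = 0.230 in limma). Dusp12 and Dusp18 had every null array above, at 0.23 (adjusted p = 0.251 in limma) and 0.17 (adjusted p = 0.376 in limma). Of all probe sets on the array, 7.72% lay wholly below and 7.6% wholly above. Those shares include dim probe sets, whereas the genes named here passed the filter. Dusp19 gave 0.20, Dusp28 0.15, Dusp3 -0.12, Styx 0.08, Dusp22 -0.07 and Dusp23 -0.0004. Over all genes 3.13% were called lower and 1.55% higher, so 0 calls in lists this short say little. Phosphatases of other families that act on MAP kinases or their kinases were not called either. Of 6 tested, limma called 0, and the unadjusted p was under 0.05 for 0, with log2 fold changes between -0.22 (Ppm1d) and -0.0012. They included Ptpn5, a tyrosine phosphatase of MAP kinases, at -0.21, and the serine/threonine phosphatase genes Ppm1a and Ppm1b at -0.05 and -0.03.

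Among the kinases that these phosphatases oppose, 1 gene was called, where 3.13% of all genes were called lower and 1.55% higher. Of 7 MAP kinase genes tested, 1 was called higher and 0 lower by limma (0 lower at an unadjusted p under 0.05), with a median log2 fold change of 0.05. The call was Mapk12, which encodes a p38 isoform (p38 gamma). It read 5.62, 5.67 and 5.73 on the null arrays and 5.32, 5.38 and 5.30 on the wild-type arrays, so the groups did not overlap. Its log2 fold change was 0.34 (SE 0.08, limma adjusted p = 0.0496). The call was lost, with adjusted p between 0.0821 and 0.276 in limma, whichever array was left out, within replicates 1 and 2, and under 4 other settings, and a second Mapk12 probe set had a log2 fold change of 0.02. Mapk14, which encodes p38 alpha, Mapk7, which encodes ERK5, and Mapk6 had log2 fold changes of 0.08, 0.12 and -0.09 and were not called.

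Upstream and downstream kinases were also close to 0. Beside the shares called over all genes, 3.13% lower and 1.55% higher, 0 calls in such short lists say little. Of 17 MAP2K and MAP3K genes, 0 were called in limma, with 3 lower and 1 higher at an unadjusted p under 0.05 and a median of -0.03. The values furthest from 0 were those of Map3k7, which encodes TAK1, at -0.28 (limma adjusted p = 0.161), Map2k6 and Map2k3, which encode activators of p38, at -0.25 and 0.24, and Map3k2 at -0.22. Map3k6 and Araf, a RAF kinase gene, had log2 fold changes of 0.22 and 0.13. Of 6 kinases activated by MAP kinases, limma called 0, and the unadjusted p was under 0.05 for 0, with values from -0.19 (Mapkapk2, the p38 effector kinase) to 0.24 (Rps6ka3, an ERK effector kinase) and with Mapkapk5 and Mapkapk3 at -0.17 and -0.14.

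Inhibitors of RAS and ERK signalling that are not phosphatases, some of which are induced by ERK much as Dusp6 is, held no call. With 3.13% of all genes called lower and 1.55% higher, 0 calls in so short a list say little. Of 7 tested, 0 passed in limma (1 was called lower with an intensity trend) and 2 were lower at an unadjusted p under 0.05. These were Errfi1, an inhibitor of the epidermal growth factor receptor, at 12.40 ± 0.10 in null liver and 12.66 ± 0.06 in wild-type liver (SD, n = 3 each, adjusted p = 0.170 in limma), and Spred1, at -0.26 (adjusted p = 0.177 in limma). The Sprouty genes Spry4 and Spry1 had log2 fold changes of -0.09 and 0.05. The median of this list was -0.03, and 4 of its 11 genes lay below the filter.

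Immediate early genes, to which Dusp1 itself is usually counted and which growth factors and stress induce through MAP kinases, were lower in part. Of 23 tested, 9 were called lower and 0 higher by limma (1 was higher at an unadjusted p under 0.05), which is 39.1% called lower, against 3.13% over all genes. The median log2 fold change was -0.37. The list was written with earlier results of these arrays known, so its direction is not independent evidence. Fos, a subunit of the AP-1 transcription factor, read 5.76, 5.74 and 5.99 on the null arrays and 8.61, 8.67 and 8.72 on the wild-type arrays. Jun, its partner subunit, read 7.27, 7.54 and 7.22 on the null arrays and 9.17, 9.32 and 9.54 on the wild-type arrays. Fos fell by 2.84 (limma adjusted p = 3.14e-06) and Jun fell by 2.00 (limma adjusted p = 7.66e-05), against log2 fold changes of -1.29 for Dusp1 and Dusp6. Egr1, a zinc finger transcription factor, fell by 1.92 (adjusted p = 0.00038 in limma), Zfp36, an RNA-destabilizing protein, by 0.98, Ier2 by 0.81 and Klf10 by 0.75. Maff, Ccn1 and Btg2, named after their values were seen, completed the 9, at -0.75, -0.75 and -0.46. The other 14 were not called. Among them were Atf3 and Junb at -0.56 and -0.51, and Myc, Ier5 and Nr4a2 at 0.06, 0.03 and -0.0069. These were likewise named after their values were seen. Log2 fold changes were below 0 for 19 of the 23, against 5877 of all 11894 genes, and 6 further listed genes lay below the filter. Without null replicate 1, 6 of the 23 were called lower, with the other arrays left out in turn 7 to 9, and with the replicate block 11.

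**Figure D3:**
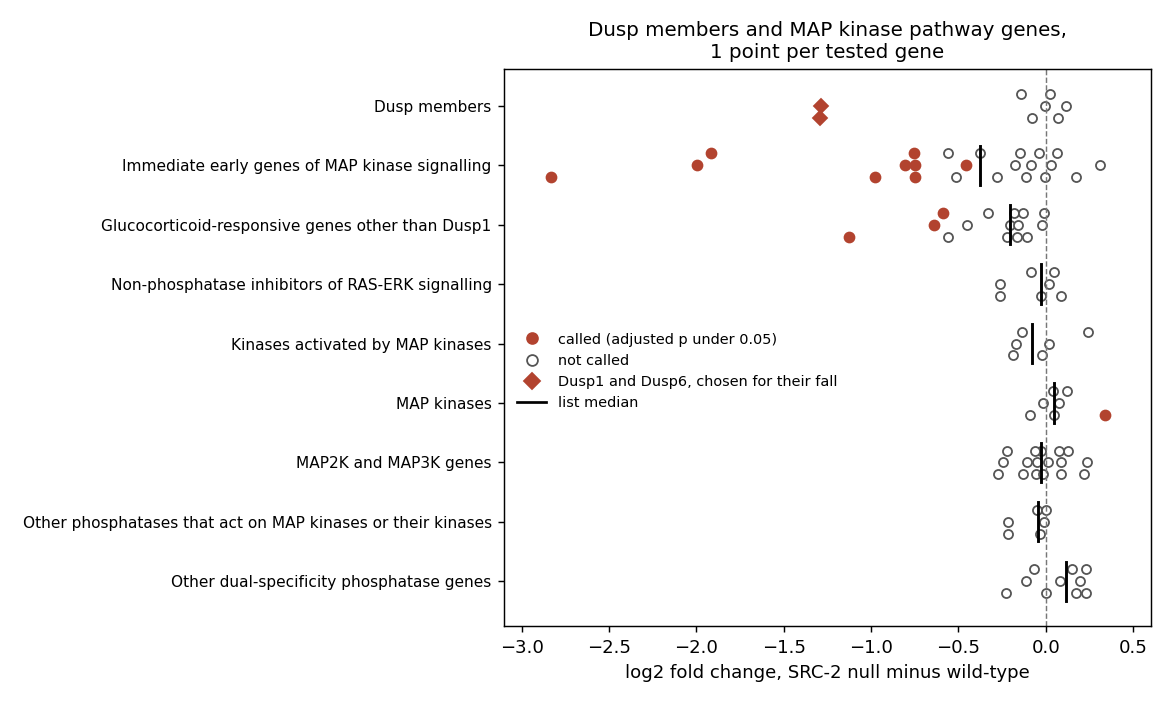
Log2 fold change, SRC-2 null minus wild-type (x axis), of tested genes, 1 point per gene, in rows for the Dusp members and 8 lists of related genes. Filled circles were called by limma, open circles were not, diamonds are Dusp1 and Dusp6, and vertical bars are list medians. Apart from Dusp1 and Dusp6, the values below -0.4 lie in the immediate early and glucocorticoid-responsive rows.

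Genes known to respond to glucocorticoids, as Dusp1 does, had log2 fold changes below 0 in 15 of 15, against 5877 of all 11894 genes. The median was -0.21 against 0.00. Only 6 of the 15 were lower at an unadjusted p under 0.05 in limma, against 1139 of all genes. Some of the 15 lay very near 0, such as Cebpd at -0.008 and Sgk1 at -0.02, both named after their values were seen. Of the 15, 3 (20%, against 3.13% of all genes) were called lower and 0 higher by limma (0 higher at an unadjusted p under 0.05), a list likewise written with earlier results known. Lpin1, a phosphatidate phosphatase, fell by 1.13 (adjusted p = 0.000121 in limma), Zbtb16, a transcriptional repressor, by 0.64 (adjusted p = 0.0208), and Cdkn1a, a cell cycle inhibitor, by 0.59 (adjusted p = 0.0466). The call of Cdkn1a was lost under 9 of 14 alternatives. Its value with the mean of all probe sets was -0.36, and its second probe set gave -0.14 (adjusted p = 0.712 in limma over all probe sets). The Zbtb16 probe set used had an adjusted p of 0.0594 in limma over all probe sets. Further Zbtb16 probe sets gave -0.60 and -0.26 (adjusted p = 0.2985 and 0.686 in that fit). Tsc22d3, which encodes the glucocorticoid-induced leucine zipper, had means of 9.09 ± 0.19 in null liver and 9.65 ± 0.22 in wild-type liver (SD, n = 3 each) and was not called (adjusted p = 0.064 in limma). Nfkbia and Igfbp1, at -0.45 and -0.22, were not called either. With the replicate number as a block 5 genes were called, and 1 gene was called without null replicate 1, without null replicate 2, without wild-type replicate 1 or within replicates 1 and 2.

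Most macrophage markers and 3 B and plasma cell markers were lower in null liver, as Dusp1 and Dusp6 were, while 2 of 8 T and NK cell markers and 0 of 5 neutrophil markers were called lower. Over all genes 3.13% were called lower and 1.55% higher, and the marker lists were chosen with earlier results known. Of 17 Kupffer cell and macrophage markers, 15 were called lower and 0 higher by limma (0 higher at an unadjusted p under 0.05), with a median of -0.94. Their summed level was 11.48 to 11.58 in null liver and 12.52 to 12.58 in wild-type liver (log2 of the summed linear values). Marco, a scavenger receptor of Kupffer cells, fell by 2.35, Timd4 by 1.40, Cd5l, C1qb and C1qa by 1.15, 1.15 and 1.01, and Clec4f by 0.98. All 17 were above the filter. Of 5 B and plasma cell markers, 3 were called lower (Ighm, Jchain and Mzb1, with Cd79b at -0.46 and Cd79a, named after its value was seen, at -0.62 not called), their summed level being 7.82 to 8.10 in null liver and 10.75 to 11.05 in wild-type liver, and Ms4a1 lay below the filter. Of 8 T and NK cell markers, Ccl5 and Nkg7 were called lower at -1.05 and -0.78, with Gzma and Cd3d at -0.40 and -0.40 not called. The other 4, named after their values were seen, were not called either, with Gzmb at -0.26, Cd4 at -0.07, Cd3e at -0.05 and Cd8a at 0.07. Nkg7 and Cd3d also passed the filter through their wild-type values. Their means were 4.04 and 4.09 in null liver and 4.82 and 4.49 in wild-type liver. The summed level of the 8 T and NK cell markers was 7.82 to 8.05 in null liver and 8.30 to 8.35 in wild-type liver. The part of these cells in the lower Dusp1 and Dusp6 was not tested.

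The remaining marker lists held 2 calls, where 3.13% of all genes were called lower and 1.55% higher. None of 5 neutrophil markers was called in limma (0 at an unadjusted p under 0.05), with Ngp at 0.18, Mpo at 0.12, S100a8 at 0.06, S100a9 at 0.04 and summed levels of 7.46 to 7.62 in null liver and 7.42 to 7.52 in wild-type liver. Of 10 endothelial markers 1 was called, Flt1, at 0.44, with Lyve1 at 0.56, Pecam1 at -0.35 and Eng at 0.13 not called, and the summed level was 10.36 to 10.55 in null liver and 10.35 to 10.46 in wild-type liver. None of 8 stellate cell and fibroblast markers was called in limma (2 were lower at an unadjusted p under 0.05), with summed levels of 10.87 to 11 in null liver and 10.99 to 11.07 in wild-type liver and Acta2 at -0.38, Reln at -0.25, Des at -0.20 and Lrat at -0.10. Of 3 cholangiocyte markers tested, Krt19 was called lower at -0.48, while Epcam and Sox9, at 0.26 and 0.18, were not called. The list's median was 0.18, and the summed level was 6.51 to 6.57 in null liver and 6.51 to 6.73 in wild-type liver.

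The genes whose profile over the 6 arrays lay nearest to Dusp1 were BC023105, Idi1, an enzyme of sterol synthesis, Csrp3, a LIM domain protein, Ctss, the lysosomal protease cathepsin S, and Gm2788. Nearness was the root mean square difference of log2 values after each gene's own mean was subtracted, and it ran from 0.04 to 0.08 for these 5 genes, against a median of 0.66 over 11886 genes. For Dusp6 the nearest were Adgre4, an adhesion receptor of myeloid cells, Cxcl9, a chemokine induced by interferon gamma, Cyp2g1, a cytochrome P450, BC023105 and Tcim, at 0.10 to 0.13 against a median of 0.68. BC023105 was in both sets, with means of 3.86 in null liver and 5.12 in wild-type liver. It passed the filter of 4.21 through its wild-type values, so its null values lie close to background. Dusp1 and Dusp6 differed from each other by 0.14, against those medians of 0.66 and 0.68. The 5 genes nearest to each lay closer, but they were picked for nearness out of 11886 genes. With 6 arrays in 2 groups such nearness reflects mostly an equal difference between genotypes, and these genes had log2 fold changes between -1.05 and -1.40.

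**Figure D4:**
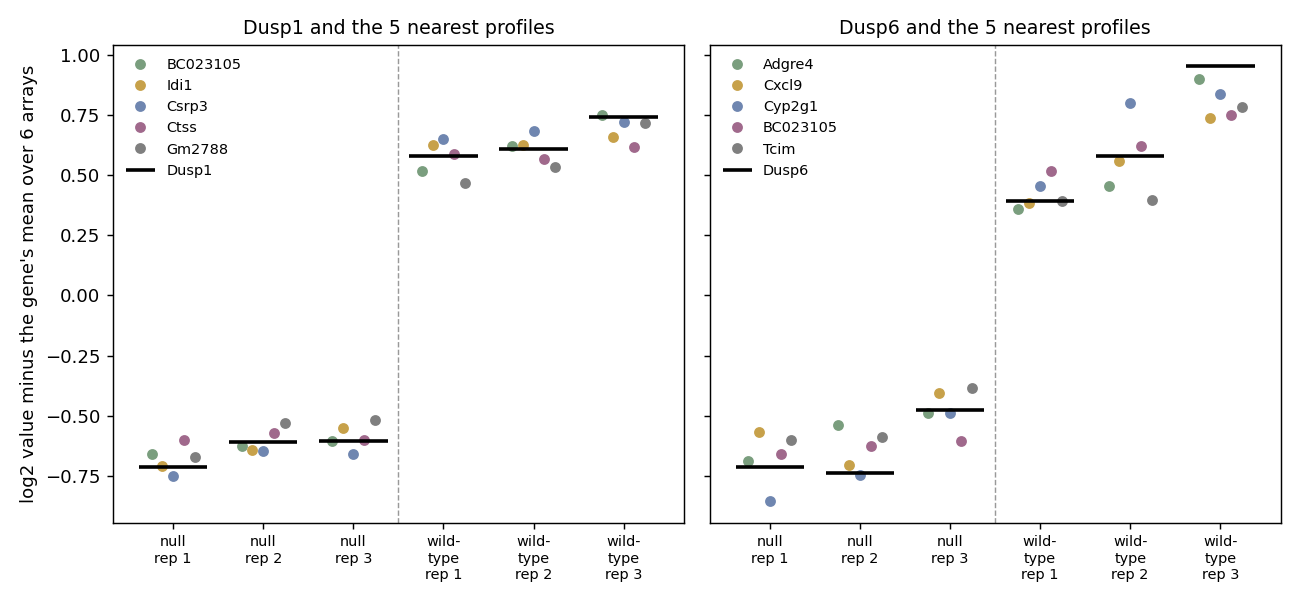
Log2 value minus the gene's mean over 6 arrays (y axis) for Dusp1 (left panel) and Dusp6 (right panel), drawn as black bars, and for the 5 tested genes nearest to each, drawn as points, on the 3 SRC-2 null arrays and then the 3 wild-type arrays (x axis). Dusp6 and its neighbours read highest on replicate 3 among the wild-type arrays, where Dusp6 reached 0.95.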

How the data were processed

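Liver RNA was labelled with biotin and hybridised to Affymetrix arrays, per the labels' protocols. The deposited values are log2 values per probe set, 1 column per array, made by the authors with RMA, per the submitters' processing notes. No RMA version and no build for the probe design was given in the sources used here. Gene symbols came from the platform annotation, and some may be outdated: 34945 probe sets carried a single symbol, 932 carried more than 1, 9160 carried none in that table, and 64 are control sets. Promoter windows came from RefSeq (GRCm38.p6).

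Null and wild-type arrays were compared in R 4.3.3 by limma 3.58.1 (functions lmFit and eBayes, two-sided tests), genotype being the sole term, over 11894 genes (brightest probe set per gene, mean at or above 4.21) and, without a filter, over 45037 probe sets. Calls were made at a Benjamini-Hochberg adjusted p under 0.05. The fit was tested on simulated data. Figures used matplotlib 3.10.9. The members and lists were chosen with earlier results of these data known. Genes named were all members, Ncoa2, the other dual-specificity phosphatases, from each list the 4 genes with the smallest p (6 where over 10 were tested) and the 5 nearest profiles. The text says where a gene falls outside this rule. No 2 arrays held identical values, and precision is limited by the small number of arrays.

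The labels give both genotypes the replicate numbers 1, 2 and 3. Deviations of same-numbered arrays correlated at 0.18, 0.20 and 0.52, so the numbers were taken to pair the arrays by the data, although arrays 1 and 2 correlated across numbers as well (0.17 and 0.21). A fit with the number as a block was an alternative, as were other scalings, filters and left-out arrays.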

Additional observations from a re-analysis of the deposited data

How the results depend on the processing

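Of the members not chosen by their fall, 0 were called under any of 14 alternatives, the replicate block included. As a description, the log2 fold change of Dusp1 ranged over these from -1.32 to -1.24 and that of Dusp6 from -1.41 to -1.13. Values near 0 changed sign: Dusp16 was 0.067 with the mean of all probe sets, Dusp10 was 0.015 within replicates 1 and 2, and with 1 array left out Dusp2 ranged from -0.027 to 0.11 and Dusp10 from -0.092 to 0.043.

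Over the 8 pathway lists, 12 genes were called lower, and 7 to 12 with 1 array left out (7 without null replicate 1). The 1 gene called higher, Mapk12, became 0 without a filter on dim genes, with the mean of all probe sets, with an intensity trend, with arrays centred on their medians, within replicates 1 and 2, and without each array in turn (0 to 0). With the replicate block, 16 were called lower and 1 higher, and Fos, Jun, Egr1, Zfp36, Klf10, Ier2, Lpin1, Zbtb16, Cdkn1a and Mapk12 kept their calls. The glucocorticoid-responsive count was 6 with an intensity trend and 5 with the replicate block or with replicates 1 and 2 set against 3, and 1 feedback inhibitor was called lower with the trend. Zbtb16 lost its call without null replicate 1, null replicate 2 or wild-type replicate 1 and within replicates 1 and 2, and Cdkn1a under 9 of 14 alternatives. Over all genes, where 372 were called lower and 184 higher, the replicate block gave 525 and 307, replicates 1 and 2 set against 3 gave 607 and 375, and replicates 1 and 2 alone gave 234 and 95. With 1 array left out, 210 to 315 were called lower and 65 to 174 higher. The lower count was 219, 217 and 210 without null replicate 1, null replicate 2 and wild-type replicate 2, and the higher count was 82, 77, 101, 71 and 65 without null replicates 1, 2 and 3 and wild-type replicates 1 and 2. The causes were not tested.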
